A study of Mus musculus with 21 samples.

Results

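The response of TG2-knockout (TG2-KO) mouse liver to bacterial lipopolysaccharide (LPS) was described from 2 RNA sequencing libraries, 1 of TG2-KO C57BL/6J mice given LPS at 30 mg/kg and 1 of TG2-KO C57BL/6J mice given PBS, both by intraperitoneal (i.p.) injection. All 5298 genes of the deposited liver table entered the description, and the series holds 21 libraries in all. The WT C57BL/6J livers set beside them came from mice given PBS or 30 mg/kg LPS i.p., with 1 library each, and a further WT LPS library without macrophage depletion, whose label gives no dose. The remaining WT C57BL/6J liver libraries were 1 given 30 mg/kg LPS plus the compound labelled CTM i.p. and 1 given LPS after macrophage depletion, without a stated dose. They enter only the median-of-ratios and unlisted-gene scalings and the comparisons with all WT libraries. The labels name the genotype as TG2-KO without saying which part of Tgm2 is deleted, and the age, the sex, the time after injection and the number of mice in a library are not given in the sources used here. RNA of both TG2-KO libraries was extracted on 1 date that no WT library shares, so genotype and extraction date cannot be told apart, whereas LPS and PBS are compared within that date. With 1 library a group there is no replicate check, and no test or p-value is given. In bulk liver RNA, fewer cells of a type and less RNA per cell cannot be told apart.

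LPS, a component of the outer membrane of Gram-negative bacteria, is bound by LPS-binding protein and CD14 and sensed by TLR4, which signals through MYD88 to NF-kB and through TRIF to interferon. In the liver, cytokines such as interleukin 6 drive hepatocytes to make acute phase plasma proteins by way of STAT3, while genes of bile acid, lipid and drug metabolism are known to be lowered. TG2 is a calcium-dependent enzyme that cross-links proteins through glutamine residues, and Tgm2 is itself a gene known to be induced in inflammation.

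Tgm2 (chr2:158116402-158146436, GRCm38) stood at 0.74 TPM with PBS and 15.5 with LPS in the TG2-KO livers, against 35.7 TPM with PBS and 425 TPM with LPS in the WT pair. Both TG2-KO libraries were below every WT library, those with CTM and with macrophage depletion included. TPM are transcript abundances that are scaled to the same total in each library and keep no read depth, so the depth behind each value is unknown. The table lists a gene where the WT LPS and WT PBS libraries lie at least 2-fold apart, with 1459 genes raised and 3839 lowered in WT. Hence the WT change of a listed gene has a floor that the TG2-KO change does not have. As a check of the tissue, 2 of 16 hepatocyte markers are listed, Cyp2e1 at 5158 TPM with PBS and 3619 with LPS and Tat at 716 TPM with PBS and 1742 with LPS in the TG2-KO livers.

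Changes are differences of log2(TPM + 1), LPS minus PBS, and a gene counts as higher or lower from a difference of 1, which is 2-fold, on that scale. In TG2-KO liver 784 listed genes (14.8%) were at least 2-fold higher with LPS, 908 (17.1%) were at least 2-fold lower, and 3606 lay under 2-fold. The higher genes went further on this scale: 350 genes were at least 4-fold higher and 80 at least 4-fold lower, and 61 against 2 passed a difference of 4. A fall on this scale is bounded by the level of the gene with PBS, whereas a rise has no such bound. With a pseudocount of 0.1 in place of 1, 1015 genes were at least 2-fold higher and 1775 lower. Of all listed genes raised in WT 52.9% were at least 2-fold higher in TG2-KO, and of those lowered in WT 23.5% were lower. The counts of gene lists below are to be read beside these shares. The listed genes together held 16.3% of all TPM with PBS and 28.0% with LPS in TG2-KO liver, so the genes outside the table held less of the total with LPS. Scaling the libraries by median of ratios over the listed genes raised every LPS to PBS ratio of TPM by 0.61 in log2 units. The median change of all listed genes on the log2(TPM + 1) scale moved from -0.38 to -0.033. A median near 0 follows from this scaling, which centres the listed genes of every library, while 72.5% of them were lowered in WT. This scaling gave 1036 higher and 274 lower genes, a share of 79.1% higher among the genes called in place of 46.3%. Scaling the unlisted genes to the same total raised the ratios by 0.22, moved that median to -0.25 and gave 882 and 600 genes.

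**Figure D1:**
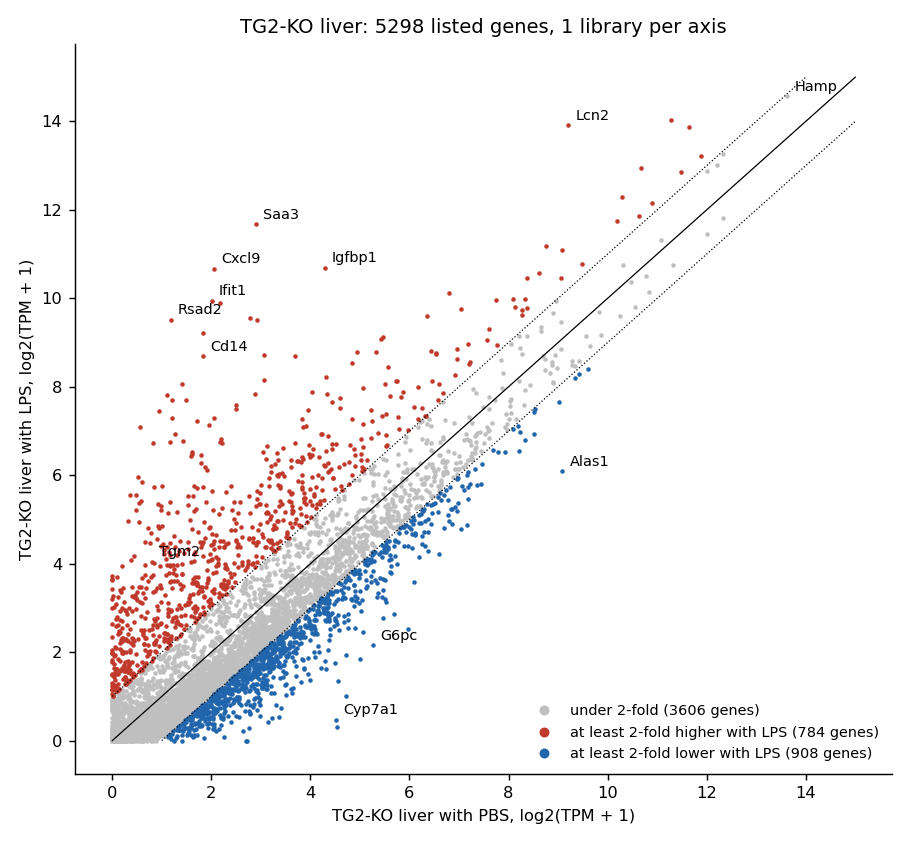
Each point is 1 of the 5298 listed genes in TG2-KO liver, with its log2(TPM + 1) with PBS on the horizontal and with LPS on the vertical axis. The dotted lines mark 2-fold, and the 784 red points above them reach further from the diagonal than the 908 blue points below. On this scale the fall of a gene is bounded by its level with PBS.

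The 3 highest changes among genes with at least 10 TPM were those of Saa3, Cxcl9 and Rsad2. Saa3, an inducible serum amyloid A, stood at 6.46 TPM with PBS and 3277 with LPS, a difference of 8.78. Cxcl9, a chemokine that attracts activated T cells and is induced by interferon gamma, stood at 3.16 TPM with PBS and 1629 with LPS. Rsad2, which encodes the antiviral enzyme viperin, stood at 1.26 TPM with PBS and 732 with LPS. These genes were at 6.46 TPM or below with PBS and among the well expressed genes of the listed set with LPS. The 3 lowest were those of Inhbe, Cyp7a1 and G0s2. Inhbe, the activin E subunit that the liver secretes, stood at 22.2 TPM with PBS and 0.24 with LPS, a difference of -4.23. Cyp7a1, the rate-limiting enzyme of bile acid synthesis, stood at 21.9 TPM with PBS and 0.39 with LPS, and G0s2, an inhibitor of the triglyceride lipase ATGL, at 25.4 TPM with PBS and 1.02 with LPS. Inhbe, Cyp7a1 and G0s2 were all under 2 TPM with LPS.

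Most of the added transcript mass came from few genes. The 10 genes with the largest gain in TPM carried 69.2% of the 117348.3 TPM that the listed genes gained. Lcn2, which encodes the iron-siderophore binding protein lipocalin 2, gained most, with 589 TPM with PBS and 15446 with LPS. Saa2, a serum amyloid A of the plasma, stood at 2469 TPM with PBS and 16724 with LPS, and the metallothionein Mt2 at 3210.5 TPM with PBS and 15058 with LPS. Hamp, which encodes the iron hormone hepcidin, was the most abundant listed gene in both libraries, at 12618 TPM with PBS and 24305 with LPS, and its difference of 0.95 lay just under 2-fold.

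**Figure D2:**
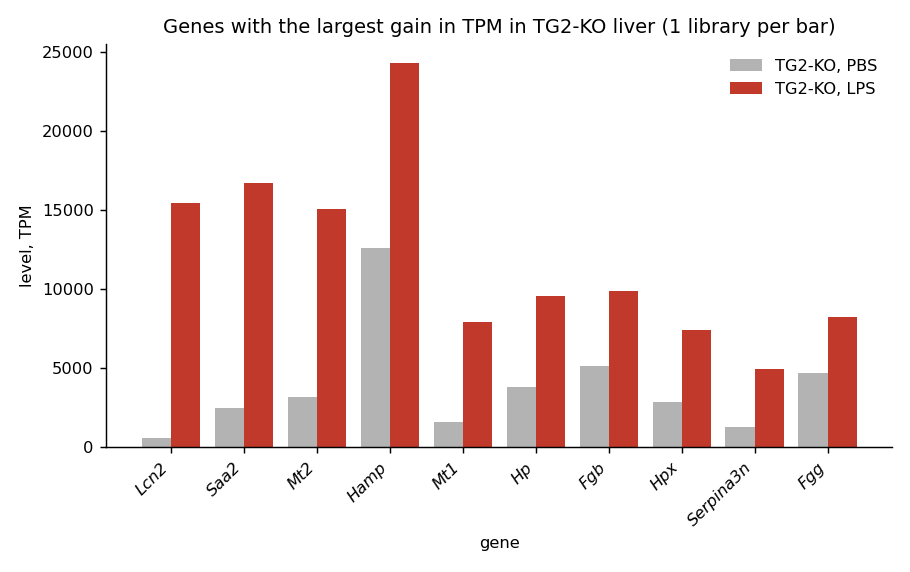
Bars give the TPM of the 10 genes with the largest gain in TG2-KO liver, PBS in grey and LPS in red, with 1 library per bar. Lcn2 goes from 589 to 15446 TPM, whereas Hamp starts at 12618 TPM.

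Among acute phase proteins, the plasma proteins that hepatocytes make in inflammation, 29 of 33 genes of the list were in the table. In TG2-KO liver 20 were at least 2-fold higher with LPS and 0 lower, against 52.9% higher among all listed genes raised in WT, and the median change was 1.45. Besides Saa3, Saa2 and Lcn2, Il1rn, which encodes the interleukin 1 receptor antagonist, stood at 1.65 TPM with PBS and 267 with LPS, and Steap4, a metalloreductase, at 434 TPM with PBS and 2335 with LPS. Lbp, the LPS-binding protein, stood at 92.4 TPM with PBS and 430.1 with LPS, and Orm2, an alpha-1-acid glycoprotein, at 214 TPM with PBS and 989 with LPS. The fibrinogen chains differed less, with Fgb at 5163 TPM with PBS and 9884 with LPS and Fgg at 4719 TPM with PBS and 8264 with LPS, both under 2-fold. Hamp2, a hepcidin paralog, was the listed member lowered in WT, and stood at 102 TPM with PBS and 115 with LPS in TG2-KO.

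The TG2-KO liver with PBS already held many of these transcripts at a high level. Over all listed genes 7.7% lay at least 2-fold apart between the PBS libraries of the genotypes, 2.94% higher and 4.76% lower in TG2-KO. Relative to the WT PBS library, 20 of the 29 acute phase genes were at least 2-fold higher in the TG2-KO PBS library, against 8.98% of all listed genes raised in WT. Saa1 stood at 1172 TPM in TG2-KO and 22.2 TPM in WT with PBS, and Saa2 at 2469 and 68.9 TPM. Mt2 stood at 3210.5 and 254 TPM, Lcn2 at 589 and 56.9 TPM, and Steap4 at 434 and 47.2 TPM. With LPS the levels of the genotypes lay near each other: Saa1 reached 3437 TPM in TG2-KO and 3845 in WT, and Mt2 reached 15058 and 18706 TPM. The median acute phase change was 1.45 in TG2-KO and 2.73 in WT, with a median level with PBS of 9.05 and 7.55 log2(TPM + 1). Genes raised in WT were listed for a WT PBS value below the WT LPS value, and the part of the PBS levels in these changes was not tested. Saa3 and Il1rn were exceptions to the higher levels with PBS, at 6.46 and 1.65 TPM in the TG2-KO PBS library and 18.1 and 2.34 TPM in the WT one.

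Some genes of the signalling that drives the acute phase were also higher in the TG2-KO PBS library than in the WT one. They were chosen after their values were seen, and most members of their lists did not share the difference. With PBS, 3 of 11 SOCS, STAT and JAK genes were at least 2-fold higher in TG2-KO than in WT and 0 lower, with a median difference of 0.16. For 22 cytokine receptors 6 were higher and 1 lower, with a median of 0.06, and for 11 CXC chemokines 1 and 1, with a median of -0.05. Stat3, which carries the interleukin 6 signal, stood at 75.1 TPM in TG2-KO and 18.5 TPM in WT with PBS. Il1r1, the interleukin 1 receptor, stood at 60.03 and 7.41 TPM, and Cxcl1, a neutrophil chemokine, at 85.5 and 3.04 TPM. With LPS, Stat3 was 148 TPM in TG2-KO and 147 TPM in WT. Of 23 listed monocyte and neutrophil markers, 5 were at least 2-fold higher and 0 lower in the TG2-KO PBS library than in the WT one, with a median difference of 0.57. Among the higher ones, S100a8 stood at 10.9 TPM in TG2-KO and 1.13 TPM in WT with PBS, and S100a9 at 12.2 and 0.22 TPM. Their part in the result was not tested.

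**Figure D3:**
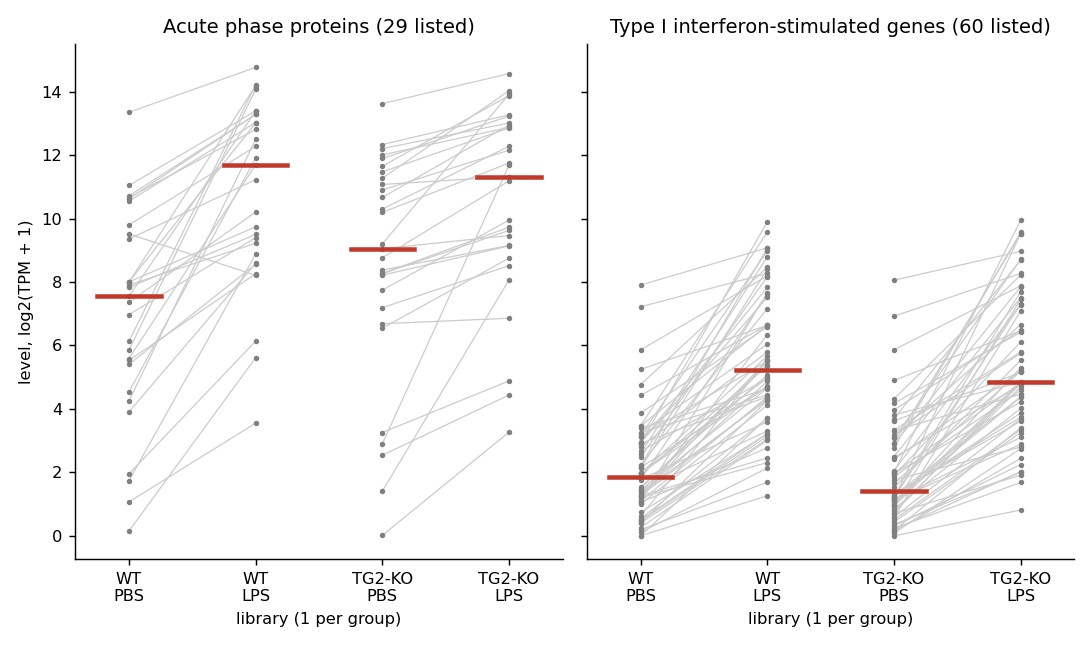
Points give the log2(TPM + 1) of each listed acute phase gene (left, 29 genes) and type I interferon-stimulated gene (right, 60 genes) in 4 libraries, lines join PBS and LPS of a genotype, and red bars are medians. With PBS the acute phase median is 9.05 in TG2-KO and 7.55 in WT, while the interferon medians are 1.42 and 1.85.

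Type I interferon-stimulated genes, which encode antiviral proteins, started low in TG2-KO liver. Of 67 genes of the list 60 were in the table, all of them raised in WT. In TG2-KO liver 58 were at least 2-fold higher with LPS and 0 lower, with a median change of 2.83 against 3.02 in WT. With PBS, 0 of the 60 were at least 2-fold higher in TG2-KO than in WT and 1 was lower. Ifit1, which binds viral RNA lacking a host cap, stood at 3.02 TPM with PBS and 983 with LPS. Isg15, a ubiquitin-like modifier, stood at 5.84 TPM with PBS and 757 with LPS, and Usp18, the protease that removes it, at 1.31 TPM with PBS and 206 with LPS. Cmpk2, a nucleotide kinase of mitochondria, stood at 0.91 TPM with PBS and 174 with LPS. The RNA sensors Ddx58, Ifih1 and Dhx58 stood at 35.8, 52.8 and 67.9 TPM with LPS, and the transcription factor Irf7 at 18.9 TPM with PBS and 297 with LPS. The members under 2-fold were Lgals9, which encodes galectin 9, at 265.2 TPM with PBS and 500.1 with LPS, and Ifit1bl2, which was listed at 0 with PBS.

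Some of the interferon genes belong to gene families that lie together. Of the 6 listed Ifit genes on chromosome 19 (34550694 to 34650009, GRCm38), 5 were at least 2-fold higher, as were all 6 Slfn genes on chromosome 11 (82951349 to 83190216) that the list holds. Genes of such families are alike in sequence, and how reads were divided among them is not stated in the sources used here.

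Promoters of 5 interferon-induced genes are shown because they hold close copies of the interferon response element, to which STAT and IRF factors bind, and that of Cxcl9 because it holds none. The first 5 were chosen after their matches were seen. Each line gives the 250 bases before the start site from RefSeq (GRCm38.p6), 5′ to 3′ on the strand of the gene, and capitals mark matches on either strand to GAAA, any 2 bases and GAAA (interferon response element), to GGGA, any 2 bases and TTCC (NF-kB), or to TGAGTCA (AP-1).
Rsad2, chr12:26456453-26456702, minus strand: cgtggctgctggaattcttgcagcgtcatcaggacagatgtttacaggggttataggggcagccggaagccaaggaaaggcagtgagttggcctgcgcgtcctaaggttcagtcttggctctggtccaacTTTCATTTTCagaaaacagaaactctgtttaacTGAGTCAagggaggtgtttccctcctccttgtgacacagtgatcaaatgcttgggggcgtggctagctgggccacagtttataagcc
Ifit1, chr19:34640639-34640888, plus strand: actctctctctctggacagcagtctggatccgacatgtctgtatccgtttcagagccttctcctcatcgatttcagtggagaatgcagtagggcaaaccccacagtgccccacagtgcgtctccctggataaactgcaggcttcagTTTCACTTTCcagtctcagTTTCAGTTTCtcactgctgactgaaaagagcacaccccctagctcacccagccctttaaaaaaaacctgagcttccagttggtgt
Isg15, chr4:156200819-156201068, minus strand: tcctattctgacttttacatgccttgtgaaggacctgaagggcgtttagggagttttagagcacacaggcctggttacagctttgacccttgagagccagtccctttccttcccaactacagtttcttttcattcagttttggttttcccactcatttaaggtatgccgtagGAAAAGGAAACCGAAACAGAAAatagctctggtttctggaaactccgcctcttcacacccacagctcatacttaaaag
Gbp2, chr3:142620413-142620662, plus strand: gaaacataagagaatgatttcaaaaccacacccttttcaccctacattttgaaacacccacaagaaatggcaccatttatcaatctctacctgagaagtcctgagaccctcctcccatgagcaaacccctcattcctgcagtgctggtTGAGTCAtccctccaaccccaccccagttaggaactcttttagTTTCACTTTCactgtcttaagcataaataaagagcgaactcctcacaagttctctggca
Cxcl10, chr5:92348890-92349139, minus strand: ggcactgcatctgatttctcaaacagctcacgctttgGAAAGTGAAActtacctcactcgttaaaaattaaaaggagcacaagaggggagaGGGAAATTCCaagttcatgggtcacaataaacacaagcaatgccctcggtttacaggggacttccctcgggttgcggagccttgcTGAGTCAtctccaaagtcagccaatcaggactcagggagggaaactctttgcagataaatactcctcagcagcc
Cxcl9, chr5:92328080-92328329, minus strand: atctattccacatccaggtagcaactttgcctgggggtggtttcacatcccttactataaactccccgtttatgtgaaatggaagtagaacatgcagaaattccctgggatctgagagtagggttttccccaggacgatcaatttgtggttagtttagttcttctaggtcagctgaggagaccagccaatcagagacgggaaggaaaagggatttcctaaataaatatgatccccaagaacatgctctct
Matches to the interferon response element begin at position -120 in Rsad2, -104 and -85 in Ifit1, -59 in Gbp2 and -213 in Cxcl10, counted from the start site. In Isg15 there are 3 overlapping matches, at -78, -72 and -66. Cxcl10 holds in addition a match to the NF-kB letters at -159 and one to the AP-1 letters at -74. Cxcl9, with the second highest change of the genes above, has 0 matches in this window, which says only that these letters are not there. A match is a description of the letters and not a measured binding site.

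Over windows of 250 bases before to 50 after the start site, 4138 of the 5298 listed genes had a promoter in the RefSeq table. The interferon response element was found in 12.3% of the 757 promoters of genes at least 2-fold higher in TG2-KO liver, in 2.03% of the 983 promoters of lower genes, in 3.75% of the 5440 promoters of all listed genes and in 3.44% of all 32851 promoters. Among the 56 promoters of the interferon-stimulated genes that were higher, 44.6% held it. The NF-kB letters were in 3.7% of promoters of higher and 1.12% of promoters of lower genes, with 1.47% over all promoters. The STAT letters TTCCNGGAA were in 2.64% and 0.509%, with 1.15% over all promoters, and the AP-1 letters in 7.79% and 4.37%, with 5.2% over all. For the C/EBP letters TTGCNNCAA the shares were 1.98% and 1.53%, with 2.08% over all, and for the HNF4 letters CAAAGTCCA 0.264% and 1.12%, with 0.475% over all. The median GC content was 57% in promoters of higher and 61.7% in those of lower genes, and its part in these shares was not tested.

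Interferon gamma acts through GTPases that attack microbes inside cells and through the presentation of antigens. Of 20 listed GBP and IRG GTPases and related genes, 17 were at least 2-fold higher in TG2-KO liver, with a median change of 3.70 and of 4.49 in WT. Gbp2 stood at 2.57 TPM with PBS and 596 with LPS and Gbp6 at 1.14 TPM with PBS and 222 with LPS, and Irgm1, a regulator of the family, at 27.5 TPM with PBS and 369 with LPS. The listed Gbp genes lie in 2 clusters, with 4 of 5 higher on chromosome 3 and 5 of 5 on chromosome 5. Ifng itself was low, at 0.1 TPM with PBS and 1.17 with LPS in TG2-KO and 6.01 TPM in the WT LPS library. All 14 listed antigen presentation genes were higher (13 raised and 1 lowered in WT), with a median change of 2.31. Of the 14, 13 reached 2 TPM in the higher TG2-KO library. Tap1, which carries peptides into the endoplasmic reticulum, stood at 7.29 TPM with PBS and 90.8 with LPS, and Psmb8, a subunit of the immunoproteasome, at 17.8 TPM with PBS and 121 with LPS. H2-Q4, a class I gene, stood at 15.4 TPM with PBS and 233 with LPS.

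Chemokines formed the other strongly induced group of secreted factors. Of 11 listed CXC chemokines 8 were higher and 1 lower, and of 10 CC and other chemokines 8 were higher. The higher ones were 8 of 10 and 8 of 9 raised in WT. Cxcl10, a ligand of CXCR3 like Cxcl9, stood at 3.52 TPM with PBS and 953 with LPS. The neutrophil chemokine Cxcl1 stood at 85.5 TPM with PBS and 449.7 with LPS. The lower member was Cxcl12, a constitutive chemokine of stromal and endothelial cells, at 110.1 TPM with PBS and 30.3 with LPS. Ccl2 and Ccl7, which attract monocytes, stood at 3.63 TPM with PBS and 105 with LPS and 2.44 TPM with PBS and 76.1 with LPS. Ccl5 stood at 2.88 TPM with PBS and 141 with LPS. All 7 listed Ccl genes on chromosome 11 between 82035571 and 83664683 (GRCm38) were at least 2-fold higher.

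Cytokines themselves were mostly of low level. Of 22 listed interleukins, TNF and growth factors, 13 were higher and 2 lower (13 of 19 raised and 2 of 3 lowered in WT). Gdf15, a stress hormone that curbs appetite, stood at 2.06 TPM with PBS and 88.3 with LPS, and the alarmin Il33 at 2.87 TPM with PBS and 26.97 with LPS. Il1b stood at 1.47 TPM with PBS and 17.4 with LPS and Csf3, which drives neutrophil production, was listed at 0 with PBS and at 11.5 TPM with LPS. Tnf stood at 0.18 TPM with PBS and 2 with LPS and Il6 was listed at 0 with PBS and at 2.96 TPM with LPS. The activin subunit Inhbc stood lower with LPS like Inhbe, at 46.1 TPM with PBS and 19.1 with LPS. Among 22 cytokine receptors 10 were higher and 0 lower. These were 10 of the 19 raised in WT, a share near the 52.9% of all listed genes raised in WT. Il17ra stood at 12.4 TPM with PBS and 57.7 with LPS and Il1r1, under 2-fold, at 60.03 TPM with PBS and 115 with LPS.

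Of 30 listed pattern recognition receptors and adaptors 19 were higher and 2 lower (19 of 26 raised and 2 of 4 lowered in WT). Cd14, the co-receptor that hands LPS to TLR4, stood at 2.57 TPM with PBS and 411 with LPS, a difference of 6.85. Tlr2 stood at 1.99 TPM with PBS and 85.3 with LPS, Zbp1, a sensor of nucleic acids, at 6.39 TPM with PBS and 229 with LPS, and the adaptor Myd88 at 19.7 TPM with PBS and 67.6 with LPS. The flagellin receptor Tlr5 was among the lower ones, at 3.29 TPM with PBS and 0.63 with LPS.

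The NF-kB list was nearly complete in the table, with 27 of 28 genes, of which 25 were at least 2-fold higher and 0 lower, with a median change of 2.02. Feedback inhibitors were among them: Nfkbia, which encodes the inhibitor IkB alpha, stood at 23.1 TPM with PBS and 183 with LPS, and Tnfaip3, which encodes the ubiquitin-editing enzyme A20, at 0.9 TPM with PBS and 27.8 with LPS. Zc3h12a, an RNase that degrades cytokine transcripts, stood at 2.57 TPM with PBS and 52.5 with LPS. The adhesion molecules Selp and Icam1 stood at 0.89 TPM with PBS and 39.8 with LPS and 11.2 TPM with PBS and 71.4 with LPS. Of 11 listed genes of the SOCS, STAT and JAK list 8 were higher. Socs1, an inhibitor of interferon signalling, stood at 1.23 TPM with PBS and 107 with LPS, and Socs3, an inhibitor of interleukin 6 signalling, at 13.4 TPM with PBS and 135 with LPS. Stat6 lay just under 2-fold lower, at 19.3 TPM with PBS and 9.79 with LPS.

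Of 36 listed immediate early and AP-1 genes 23 were higher and 1 lower (23 of 32 raised and 1 of 4 lowered in WT). Cdkn1a, which encodes the cell cycle inhibitor p21, stood at 2.27 TPM with PBS and 148 with LPS, and Junb, an AP-1 subunit, at 47.9 TPM with PBS and 219.9 with LPS. The p53 target and cell death list, which shares Cdkn1a, Btg2 and Gdf15 with other lists, had 20 of 27 higher (20 of 25 raised in WT) and 0 lower. In it Trp53inp1 stood at 3.51 TPM with PBS and 106 with LPS, the necroptosis effector Mlkl at 2.25 TPM with PBS and 36.5 with LPS, and Bcl2l1, a survival gene, at 13.4 TPM with PBS and 81.8 with LPS. Stress genes with a role in redox defence were mixed, with 7 of 19 higher and 1 lower. That is 7 of the 12 raised in WT, near the 52.9% of all listed genes raised in WT, and 1 of the 7 lowered. Hmox1, which breaks down heme, stood at 43.01 TPM with PBS and 561 with LPS, above the 256 TPM of the WT LPS library. Sod2, the mitochondrial superoxide dismutase, stood at 53.6 TPM with PBS and 159 with LPS, and catalase (Cat) at 1505 TPM with PBS and 897 with LPS.

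Genes of the unfolded protein response differed less between LPS and PBS. Of 13 listed genes 2 were higher and 1 lower (2 of 12 raised and 1 of 1 lowered in WT). Their median change was 0.38 in TG2-KO and 1.55 in WT. Hspa5, the main chaperone of the endoplasmic reticulum, stood at 301 TPM with PBS and 472 with LPS in TG2-KO, and at 213 and 701 TPM in the WT pair. Dnajb9, a co-chaperone, stood at 96.8 TPM with PBS and 50.2 with LPS in TG2-KO, a difference of -0.93, and at 43.6 and 159 TPM in the WT pair. The WT LPS library without macrophage depletion held less of both, with 388 TPM of Hspa5 and 71.7 TPM of Dnajb9. The difference between the genotypes was not tested. Of 16 heat shock genes 1 was higher and 1 lower (1 of 5 raised and 1 of 11 lowered in WT). Their median of -0.01 changes sign with the scaling. In the proteasome, ubiquitin and autophagy list 7 of 14 were higher and 1 lower (7 of 9 raised and 1 of 5 lowered in WT). The polyubiquitin gene Ubb stood at 535 TPM with PBS and 1407 with LPS and the lysosomal regulator Tfeb at 4.91 TPM with PBS and 0.8 with LPS.

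In the lists of bile acid and drug metabolism more genes were lower than higher, and most of the listed genes lay under 2-fold. Of 22 listed bile acid genes 10 were at least 2-fold lower and 1 was higher, against 23.5% lower among all listed genes lowered in WT, with a median change of -0.96. Beside Cyp7a1, Nr1h4, which encodes the bile acid receptor FXR, stood at 95.5 TPM with PBS and 17.6 with LPS. Cyp8b1, which makes cholic acid, stood at 102 TPM with PBS and 45.9 with LPS, the canalicular exporter Abcc2 at 47.4 TPM with PBS and 15.9 with LPS and the uptake carrier Slc10a1, under 2-fold, at 477 TPM with PBS and 276 with LPS. Of 28 listed cytochrome P450 genes 12 were lower and 0 higher. Cyp4a12a stood at 174 TPM with PBS and 55.1 with LPS, Cyp2a5 at 772 TPM with PBS and 339.5 with LPS, and Cyp4a14, a target of PPAR alpha, at 145 TPM with PBS and 52.3 with LPS. Of 35 genes of the conjugation enzyme list, which also holds enzymes that do not conjugate, such as Fmo5, 15 were lower and 1 higher. Fmo5, a monooxygenase, stood at 301 TPM with PBS and 124 with LPS. Ugt2b5, a glucuronosyltransferase, stood at 367 TPM with PBS and 173 with LPS. The median change was -0.85 for P450 genes and -0.85 for conjugation enzymes. With median-of-ratios scaling the medians were -0.37 for bile acid genes, -0.29 for P450 genes and -0.25 for conjugation enzymes. With PBS, 8 of the 28 P450 genes were already at least 2-fold lower in TG2-KO than in WT and 0 higher, against 5.99% lower among all listed genes lowered in WT. Cyp2c69, chosen after its values were seen, stood at 3.5 TPM in TG2-KO and 27.6 TPM in WT with PBS.

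Lipid synthesis genes had the lowest median of the metabolic lists. Of 19 listed genes of fatty acid and triglyceride synthesis 12 were lower and 0 higher, with a median change of -1.34, or -0.74 with median-of-ratios scaling. Gpam, which starts triglyceride synthesis, stood at 30.9 TPM with PBS and 2.6 with LPS. Srebf1, the transcription factor of the pathway, stood at 131 TPM with PBS and 26.6 with LPS, and its targets Fasn and Acly at 142 TPM with PBS and 28.4 with LPS and 71.9 TPM with PBS and 16.7 with LPS. With PBS, Fasn was at 142 TPM in TG2-KO and 48.8 TPM in WT. Of 27 genes of fatty acid oxidation and ketogenesis 13 were lower and 1 was higher, with a median of -0.91, or -0.32 with that scaling. Ppara, the nuclear receptor of the fasting response, stood at 42.3 TPM with PBS and 8.44 with LPS, and Acsl1, which activates fatty acids, at 243 TPM with PBS and 91.2 with LPS. The higher one was Pdk4, which restrains glucose oxidation, at 0.58 TPM with PBS and 8.38 with LPS. Cholesterol genes were fewer, with 4 of 14 lower (4 of 12 lowered in WT) and 0 higher.

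Glucose genes went both ways, with 9 of 27 higher and 9 lower (9 of 12 raised and 9 of 15 lowered in WT). G6pc, which releases glucose from hepatocytes, stood at 37.3 TPM with PBS and 3.47 with LPS. Pfkfb3, which drives glycolysis, stood at 8.99 TPM with PBS and 89.5 with LPS, and the glucose carrier Slc2a1 at 2.55 TPM with PBS and 17.03 with LPS. Igfbp1, a binding protein of insulin-like growth factors that is induced by stress and fasting, stood at 18.6 TPM with PBS and 1648 with LPS, a difference of 6.40. Alas1, the rate-limiting enzyme of heme synthesis in liver, stood at 542 TPM with PBS and 66.99 with LPS in TG2-KO and at 195 and 68.6 TPM in WT. Of 31 amino acid genes 5 were higher and 4 lower, which is 5 of the 8 raised and 4 of the 23 lowered in WT, against 52.9% and 23.5% of all listed genes of those directions. Tat, the tyrosine aminotransferase, stood at 716 TPM with PBS and 1742 with LPS and was among the higher.

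Of 24 listed hepatocyte transcription factors 14 were at least 2-fold lower and 1 was higher, with a median change of -1.33, or -0.80 with median-of-ratios scaling. Beside Nr1h4 and Ppara, Nr1i3 and Nr1i2, which encode the drug sensors CAR and PXR, stood at 40.4 TPM with PBS and 9.16 with LPS and 27.7 TPM with PBS and 8.05 with LPS. Rxra, the partner of many nuclear receptors, stood at 136 TPM with PBS and 50.1 with LPS. Hhex, a homeobox gene of liver identity, stood at 61.6 TPM with PBS and 4.78 with LPS. The higher one was Sox9, a factor of bile duct cells that injured hepatocytes also express, at 2.11 TPM with PBS and 45.5 with LPS. Of 16 circadian genes 4 were higher and 7 lower, with 3 of 5 raised in WT higher and 7 of 11 lowered in WT lower. Dbp, an output of the clock, stood at 46.3 TPM with PBS and 19.7 with LPS, and Nfil3, a repressor of the same targets, at 22.7 TPM with PBS and 72.3 with LPS. The time of day of sampling is not given in the sources used here.

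**Figure D4:**
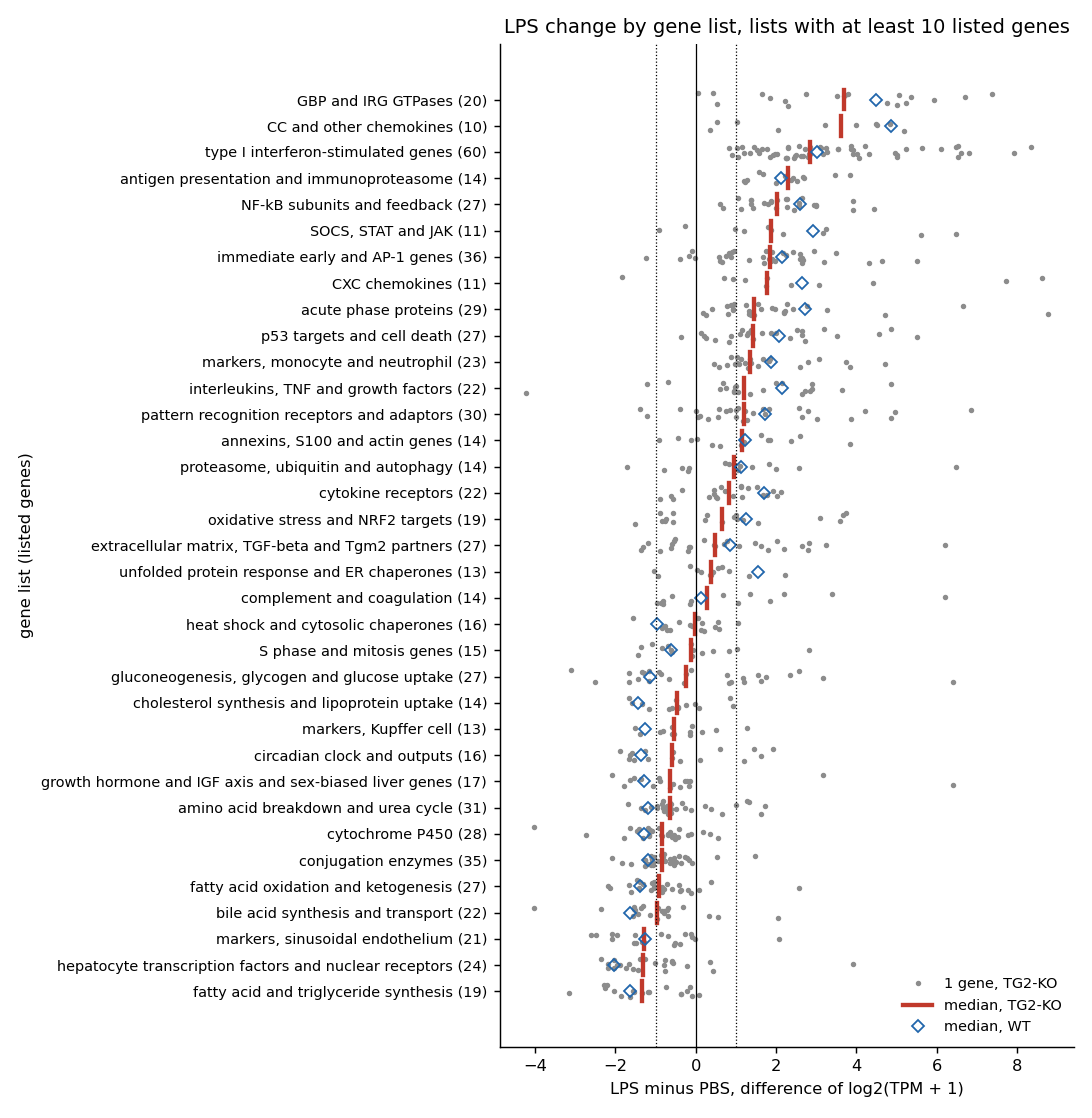
Grey points give the LPS change of each listed gene in TG2-KO liver by gene list, red bars the TG2-KO median and open diamonds the WT median, as differences of log2(TPM + 1). The lists run from GBP and IRG GTPases with a median of 3.70 at the top to fatty acid and triglyceride synthesis with -1.34 at the bottom.

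Markers of other cell types are set beside all listed genes, of which 52.9% of those raised in WT were higher and 23.5% of those lowered were lower. Of 23 listed monocyte and neutrophil markers, all raised in WT, 18 were higher and 0 lower. Their summed level without Lcn2, which hepatocytes also make, was 47.4 TPM with PBS and 263 TPM with LPS. S100a9, a neutrophil protein, stood at 12.2 TPM with PBS and 78.6 with LPS and Ngp, a granule protein, at 0.58 TPM with PBS and 21.6 with LPS. Of 21 markers of sinusoidal endothelium 11 were lower (of 20 lowered in WT) and 1 was higher, with a summed level of 225 and 91.95 TPM. Clec4g and Gpr182 stood at 39.5 TPM with PBS and 8.52 with LPS and 32.4 TPM with PBS and 4.52 with LPS, while the higher one, the hyaluronan receptor Lyve1, stood at 3.06 TPM with PBS and 16.1 with LPS. Of 8 stellate cell and fibroblast markers, all lowered in WT, 4 were lower and 0 higher, with Colec11 at 25.96 TPM with PBS and 5.66 with LPS. Kupffer cell markers, of the resident macrophages, had 2 lower and 1 higher of 13. The 2 were of 10 lowered in WT, a share near that of all listed genes lowered in WT. Their median change of -0.55 was -0.003 with median-of-ratios scaling. Clec4f, under 2-fold, stood at 8.92 TPM with PBS and 5.78 with LPS and Cd5l at 18.4 TPM with PBS and 6.37 with LPS. No listed member of these 4 marker lists was at 0 in the TG2-KO LPS library. The part of these cells in the other changes was not tested.

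Hemoglobin transcripts, which mark blood in the tissue, differed strongly between the TG2-KO libraries. Hba-a1 stood at 110.4 TPM with PBS and 1113 with LPS and Hbb-bs at 41.9 TPM with PBS and 537 with LPS. In WT, Hba-a1 stood at 769.7 TPM with PBS, 2904 TPM with LPS and 597 TPM in the WT LPS library without macrophage depletion. The TG2-KO PBS library was thus the lowest of these. The 4 hemoglobin genes are near copies in pairs, and their part in the other changes was not tested.

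Genes of the matrix, where TG2 acts outside cells, were mixed, and those of complement and coagulation were higher or under 2-fold. Of 14 listed complement and coagulation genes 6 were higher and 0 lower (6 of 7 raised and 0 of 7 lowered in WT). In the list of matrix, TGF-beta and Tgm2 partner genes 11 of 27 were higher and 3 lower, counting Tgm2 itself. These were 11 of 16 raised and 3 of 11 lowered in WT. Timp1, an inhibitor of matrix proteases, stood at 7.81 TPM with PBS and 34.6 with LPS in TG2-KO and at 0.3 and 37.5 TPM in WT. Col4a1, a basement membrane collagen, stood at 4.98 TPM with PBS and 40.8 with LPS, and Sparc, a matrix-binding protein, at 18.5 TPM with PBS and 6.78 with LPS. Of 14 annexin, S100 and actin genes 8 were higher (8 of 9 raised in WT) and 0 lower, with S100a11 at 29.9 TPM with PBS and 443 with LPS.

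The direction of the TG2-KO change was mostly that of WT. Of the 1459 genes raised in WT, 1356 (92.9%) were higher with LPS in TG2-KO by any amount, and of the 3839 lowered in WT, 3524 (91.8%) were lower. Of the 1555 genes at least 2-fold apart in both genotypes 1546 went the same way and 9 the opposite way, which is 0.17% of all listed genes. Here the WT change had to reach 1 on the log2(TPM + 1) scale too, as it did for 1091 genes raised and 2453 lowered in WT. Without that limit, 4 genes raised in WT were at least 2-fold lower in TG2-KO and 12 lowered in WT were higher. Across the 5298 genes Pearson's r of both changes was 0.89 and Spearman's rho 0.79, which describe genes of the same libraries and not replicates. Genes under 2-fold apart in the WT pair are not listed. Hence r, rho and the shares above hold for the listed genes alone, and the choice of genes can raise them. Genes raised in WT had a median change of 1.05 in TG2-KO and 1.44 in WT, and genes lowered in WT one of -0.62 and -1.14. The WT values are larger in part by construction, since the genes were listed for their difference between these WT libraries. The WT LPS library without macrophage depletion was not used in the choice, and set against the same WT PBS library it gave 1.30 and -0.78. These values are not free of the choice either, since the WT PBS library was used in it. With LPS, 6.3% of listed genes lay at least 2-fold apart between TG2-KO and the WT LPS library of the pair, 8.36% between TG2-KO and the WT LPS library without macrophage depletion, and 7.51% between these WT LPS libraries.

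**Figure D5:**
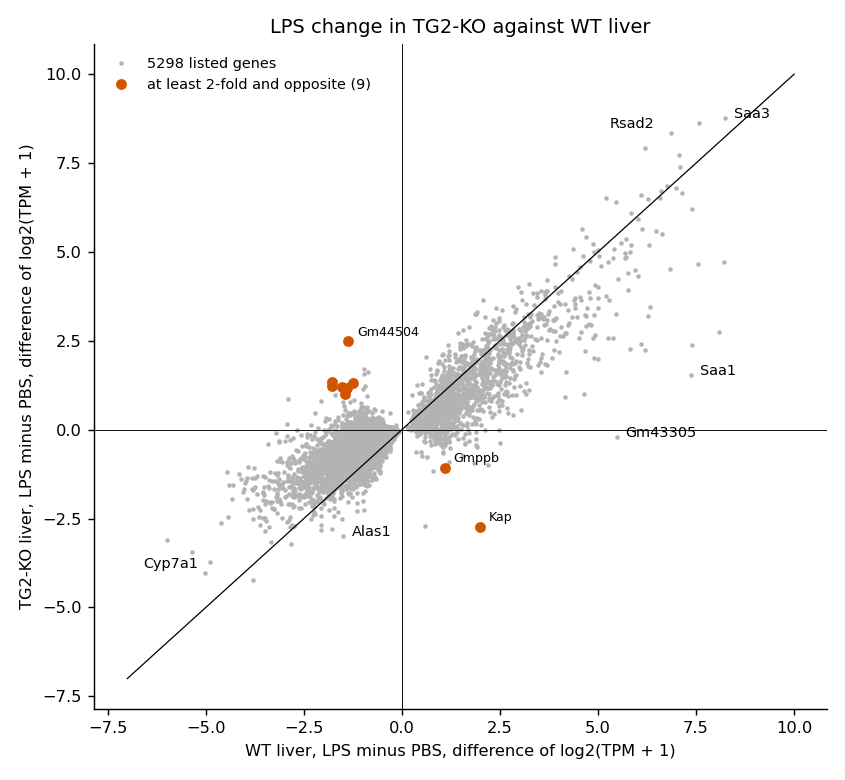
Each grey point is a listed gene, with its LPS change in WT liver on the horizontal and in TG2-KO liver on the vertical axis, both as differences of log2(TPM + 1), and the line marks equal changes. The 9 orange points are genes at least 2-fold apart in opposite directions, and Gm43305 lies near 0 in TG2-KO.

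A few genes had a large WT change and little change in TG2-KO. Of 723 genes with a WT change of at least 2 in size and at least 10 TPM in 1 of the 4 libraries, 27 changed by less than 0.5 in TG2-KO. Gm43305, annotated as a processed transcript on chromosome 14 (54292443 to 54297456, GRCm38), stood at 13.3 TPM with PBS and 11.4 with LPS in TG2-KO and at 12.4 and 595 TPM in WT, with 390.2 TPM in the WT LPS library without macrophage depletion. Serpina3m, a serine protease inhibitor, stood at 529.5 TPM with PBS and 707 with LPS in TG2-KO and at 163 and 1180.2 TPM in WT, with 1318 TPM in the other WT LPS library, and lies in a family of near copies. Coq8a, needed for coenzyme Q synthesis, stood at 29.3 TPM with PBS and 27.6 with LPS in TG2-KO and at 51.2 and 4.62 TPM in WT, with 6.34 TPM in the other WT LPS library. For Serpina3m, the TG2-KO PBS value lay between the WT PBS and WT LPS values.

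Other genes changed the same way as in the WT pair and by more. Rsad2 differed by 8.34 in TG2-KO and 6.87 in WT, reaching 732 and 537 TPM, and Ifit1 by 7.94 and 6.20, reaching 983 and 442 TPM. The WT LPS library without macrophage depletion held 117 TPM of Rsad2 and 96.02 TPM of Ifit1, so the WT libraries lay further from each other than TG2-KO lay from the WT LPS library of the pair. Alas1 differed by -3.00 in TG2-KO and -1.49 in the WT pair, whereas the WT LPS library without macrophage depletion held 249 TPM, a difference of 0.35 from WT PBS in the other direction. With 1 library of each TG2-KO group, none of these differences between genotypes was tested.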

How the data were processed

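Liver RNA was sequenced from stranded mRNA libraries, per the labels' protocols. The authors deposited TPM per gene symbol, rounded to 2 decimals, and the submitters' processing notes name Salmon and the builds mm10 and GRCm38, while the annotation is not given in the sources used here. The liver values cover 5298 genes in 7 libraries of 1 per group, and a check of the values found a WT difference of at least 2-fold for every gene above 0 in both WT libraries. The listed genes sum to between 153179.8 and 336332.5 TPM per library. The cell line tables of the series were not analysed here.

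Groups were taken from the labels. The LPS change is the difference of log2(TPM + 1), with a pseudocount of 1 and no filter, and genes differing by at least 1 were counted. No test was possible with 1 library per group. The counting was tested on simulated data, a copy of the TG2-KO PBS library without noise and with changes set in genes of at least 10 TPM. That checks the arithmetic and not how reliable a call between single libraries is. The gene lists (42, of which 40 had at least 3 listed genes), the naming rule and the alternatives were chosen with earlier results of these data known. The rule names Tgm2, the 15 highest and 15 lowest TG2-KO changes at 10 TPM or more, up to 5 genes of each list, and up to 10 genes each that went opposite to WT, changed in WT alone or changed more in TG2-KO. The text gives part of these, and other genes named were chosen after their values were seen. Alternatives were a pseudocount of 0.1, filters at 2 and 10 TPM, median-of-ratios scaling, a 4-fold limit and the other WT LPS library, and, added after seeing the data, scaling the unlisted genes to the same total. Positions are from GENCODE M21 (GRCm38), and promoters from RefSeq (GRCm38.p6). Python 3.11.15, numpy 2.4.6, pandas 2.3.3, scipy 1.17.1 and matplotlib 3.10.9 were used.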

Additional observations from a re-analysis of the deposited data

Results flagged for a closer look

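In TG2-KO liver 9 genes (0.17% of those listed) were at least 2-fold apart between LPS and PBS in the direction opposite to WT, and 7 of them were higher in TG2-KO. For these the WT change also reached 1 on the log2(TPM + 1) scale. None of these differences between genotypes was tested. Noct, a clock-controlled phosphatase of nicotinamide cofactors, stood at 34.5 TPM with PBS and 80.1 with LPS in TG2-KO, a difference of 1.19, and at 26.9 and 8.72 TPM in WT. Hist1h2bc, a histone H2B gene, stood at 101 TPM with PBS and 231 with LPS in TG2-KO, a difference of 1.18, and at 299.9 and 113 TPM in WT. Anp32a, an acidic nuclear phosphoprotein, differed by 1.02, from 24.03 to 49.7 TPM, and stood at 68.9 and 24.4 TPM in WT. For Hist1h2bc and Anp32a the TG2-KO PBS level lay below the WT PBS level.

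Baiap2, an adaptor that links membranes to actin, differed by 1.33, from 5.65 to 15.7 TPM in TG2-KO, and stood at 16.8 and 4.16 TPM in WT. Wipf3, of the actin-regulating WIP family, differed by 1.30, from 3.55 to 10.2 TPM. At low levels, Gm44504 differed by 2.48, from 0.4 to 6.83 TPM, and the class I gene H2-Q6, which has near copies, by 1.23, from 0 to 1.35 TPM. The 2 genes lower in TG2-KO were Kap, a kidney androgen-regulated protein gene, with a difference of -2.73, from 5.63 TPM to a value listed at 0, and Gmppb, which makes GDP-mannose, with -1.07, from 10.4 to 4.41 TPM. Kap stood at 0.11 TPM in the WT LPS library with macrophage depletion and at 31.3 TPM in the one without. The latter differed from WT PBS by under 2-fold for Gmppb (0.60) and Gm44504 (-0.61). For the other opposite genes it differed by at least 2-fold in the direction of the WT pair. The cholangiocyte markers, with 5 listed genes, had a median change of 0.34 in TG2-KO and -1.33 in WT.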

How the results depend on the processing

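No paired analysis was possible because each liver group has 1 library and the groups share no replicate numbers that mark pairs. With a pseudocount of 0.1 the genes at least 2-fold lower in TG2-KO liver came to 1775, those called the same way in both genotypes to 2718 and those called opposite to 32, against 908, 1546 and 9. With at least 10 TPM in the higher TG2-KO library there were 497 higher and 381 lower genes, 853 called the same way, a median TG2-KO change of 1.72 for genes raised in WT and 1543 genes that changed less in TG2-KO than in WT. Fewer genes enter under that filter. A 4-fold limit left 350 higher and 80 lower genes. Median-of-ratios scaling left 274 lower and 4 opposite genes, and scaling the unlisted genes to the same total left 600 lower genes. The former centres the listed genes, most of which were lowered in WT, and so raises the LPS to PBS ratios.

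Median-of-ratios scaling turned the median TG2-KO change above 0 for 4 of 40 lists: plasma transport proteins that fall in inflammation to 0.035, cholesterol genes to 0.030, glucose genes to 0.29 and heat shock genes to 0.46. It moved 6 more by over 1.5-fold with no change of sign: acute phase proteins to 2.06, conjugation enzymes to -0.25, bile acid genes to -0.37, fatty acid oxidation to -0.32, fatty acid and triglyceride synthesis to -0.74 and amino acid genes to -0.052. The heat shock median was also 0.067 with a filter at 2 TPM and 0.16 with the unlisted genes scaled. No called change of the 198 named genes turned its direction under the scalings or the pseudocount. TPM keep no depth, so the counting error of low values, such as H2-Q6 and Gm44504, is unknown.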

Other observations

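Both TG2-KO libraries lay outside all 5 WT liver libraries by at least 2-fold in the same direction for 8 of the 5298 listed genes, whatever the treatment. The WT libraries include the one given LPS plus CTM and the one with macrophage depletion. They were sought after the data were seen. The widest gaps were in a pair of related genes. Ahcy, which encodes adenosylhomocysteinase of the methionine cycle, stood at 34.3 TPM with PBS and 23.9 with LPS in TG2-KO and between 571 and 1222 TPM in the WT libraries. Gm4737, an intronless retrogene on chromosome 16 that shares a RefSeq synonym with Ahcy, stood at 1209 TPM with PBS and 779.99 with LPS in TG2-KO and between 0.34 and 4.18 TPM in the WT libraries. The sum of both genes was 1243 TPM in TG2-KO and 1227 TPM in WT with PBS, and 804 and 604 TPM with LPS. Reads of near-identical copies may be divided between them, so neither level is certain. Ahcy (chr2:155059310-155074497, GRCm38) lies 3.06 Mb from Tgm2 by their start coordinates, and 68 of the 5243 listed genes with a position lie within 10 Mb of Tgm2, of which Ahcy and Tgm2 are among the 8. What sets these levels was not tested.

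The other genes were Cyp2b10, a drug-induced cytochrome P450, at 1.02 TPM with PBS and 0.49 with LPS in TG2-KO and at least 4.34 TPM in the WT libraries, and Hamp2, at 102 TPM with PBS and 115 with LPS in TG2-KO and at least 233 TPM in WT. Higher in TG2-KO were Mup9, a major urinary protein gene with near copies, at 319.8 TPM with PBS and 110.3 with LPS, the lipid droplet gene Fitm1 at 76.9 TPM with PBS and 55.8 with LPS and the protease inhibitor Serpine2 at 13.8 TPM with PBS and 8.03 with LPS. In WT these reached at most 48.2, 22.8 and 3.18 TPM.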
